A study of Homo sapiens with 22 samples.

Results

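Transcripts of 50 genes for mitosis were followed by RNA sequencing through 6 groups of HT1080 cells, a human fibrosarcoma line. The genes encode the spindle, the kinetochore, the checkpoint that guards their attachment, and the enzymes that start and end cell division. They were picked by name from the 60675 genes of the deposited table, with no value used, and all 50 were found, 48 under their present symbol and 2 (SGO1 and SGO2) under an older one. All 50 passed the filter on low counts in every comparison. The study asked what cells lose when a lysine deacetylase (KDAC) is still made but cannot act.

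WT cells were parental HT1080 (4 libraries). KDAC6H216A, KDAC6H611A and KDAC8H143A (4 libraries each) carried a histidine to alanine change, made with Cas9 at the endogenous gene, in the first catalytic domain of KDAC6, the second catalytic domain of KDAC6, and the single catalytic domain of KDAC8. By the methods of the study, the KDAC6H216A material pooled independent clones, while the other lines each came from single colonies, so that a trait of one clone and an effect of the mutation cannot be told apart in them. The KDAC8H143A line also carried an unintended base insertion in an intron. The last groups were WT cells given 1 µM Tubastatin A, sold as a KDAC6 inhibitor, or 5 µM PCI-34051, sold as a KDAC8 inhibitor, for 2 days (3 libraries each). A vehicle control is not mentioned in the sources used here, and both were compared with untreated WT. The methods of the study call the replicates biological, while the labels do not say how they were grown, and p-values measure the spread between these libraries.

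Mitotic genes are switched on together in G2 and shut off after division, so their level in a growing culture follows both how many cells are near mitosis and how much of each transcript those cells hold. In bulk RNA, fewer cells of a type and less RNA per cell cannot be told apart. The shared timing is known to run through the MuvB complexes with B-MYB and FOXM1, which are recruited to a promoter element called the cell cycle genes homology region, often beside CCAAT boxes bound by NF-Y. KDAC6 is best known for removing acetyl groups from alpha-tubulin, the building block of the spindle, and KDAC8 for removing them from SMC3, a subunit of the cohesin ring that holds sister chromatids.

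The promoter windows of the genes are described because such elements are known for genes with this timing. The part of the elements in the changes below was not tested. RefSeq (GRCh38.p14) windows from 250 bases before to 50 bases after a transcription start were found for 44 of the 50 genes. The homology region was searched for as TTTGAA or TTTAAA, and the CCAAT box as CCAAT, both strands being read (TTCAAA and ATTGG on the other strand, while TTTAAA reads the same on both). The homology region letters stood in the windows of 36 of 44 genes (81.8%), against 27.9% of all 27305 genes with a window. Within 50 bases of the start on either side they stood in 32 of 44 (72.7%), against 9.41% of all genes. A CCAAT box stood in 36 of 44 (81.8%), against 39.7% of all genes, and at least 2 stood in 23 of 44 (52.3%), against 12.9%. Both elements were found together in 29 of 44 (65.9%), against 11.2%. A match is only a run of letters, not a site shown to be used. The 150 bases before the start are given below, 5′ to 3′ on the gene's own strand, for CDK1 and CCNB1, which encode the kinase and cyclin of mitotic entry, and for NDC80 and CENPE, which had the largest falls in KDAC6H611A and with PCI-34051. Capitals mark the homology region letters and the CCAAT boxes.
CDK1 (chr10:60778181-60778330, plus strand): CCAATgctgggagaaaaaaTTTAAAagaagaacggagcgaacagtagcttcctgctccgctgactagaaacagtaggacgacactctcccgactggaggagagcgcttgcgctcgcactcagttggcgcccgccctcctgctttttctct
CCNB1 (chr5:69167000-69167149, plus strand): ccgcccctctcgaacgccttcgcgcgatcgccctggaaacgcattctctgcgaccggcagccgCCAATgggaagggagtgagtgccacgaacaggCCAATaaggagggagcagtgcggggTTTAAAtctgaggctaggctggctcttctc
NDC80 (chr18:2571407-2571556, plus strand): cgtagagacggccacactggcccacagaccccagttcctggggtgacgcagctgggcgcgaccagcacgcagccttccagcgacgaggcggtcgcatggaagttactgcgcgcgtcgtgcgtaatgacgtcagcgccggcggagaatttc
CENPE (chr4:103198344-103198493, minus strand): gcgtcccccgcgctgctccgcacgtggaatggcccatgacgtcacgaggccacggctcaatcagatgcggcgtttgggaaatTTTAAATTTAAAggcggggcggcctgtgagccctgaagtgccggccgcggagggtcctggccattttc
CDK1 held a CCAAT box 150 bases before this start and TTTAAA 131 bases before it, and a second RefSeq start of CDK1 further downstream, not shown, had CCAAT boxes read as ATTGG 78 and 46 bases before it and TTTGAA 69 and 13 bases before it. CCNB1 held a pair of CCAAT boxes starting 87 and 55 bases before its start and TTTAAA at 30 bases before it. CENPE held TTTAAA in tandem at 68 and 62 bases before its start. NDC80 held neither element within the stretch shown, and its only match, TTCAAA, began 3 bases before the start and ran past it.

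Library totals ran from 5248960 to 29862658 counts, and members of the set had at least 37 counts in every library, with a median of 645. WT totals were 5248960 to 8998521, those of KDAC8H143A 11010779 to 17170493, and those of the inhibitor groups 24315844 to 29862658. Protein-coding genes held 60.6% to 65.1% of counts in WT, 83.0% to 85.3% in KDAC8H143A and 88.4% to 90.2% with the inhibitors. Depth and group therefore cannot be told apart in these comparisons. Mitochondrial rRNA made up 20.8% to 23.9% of counts in WT, but at most 0.0259% in KDAC8H143A and at most 0.00541% in both inhibitor groups. In KDAC6H216A it was 0.195% in replicate 1 and 13.1% to 15.1% in the others, and in KDAC6H611A it was 0.173% in replicate 4 and 21.0% to 38.0% in the others. No WT library had a low share, so the removal of mitochondrial rRNA and the group cannot be told apart for KDAC8H143A and the inhibitors. Of the markers of the line, VIM stood between 2083 and 4681 CPM and FN1 between 175 and 3255 CPM in all 22 libraries, COL1A1 was at 0.290 to 21.3 CPM, COL1A2 was at 4.54 CPM or less with 0 counts in 6 libraries, THY1 and S100A4 were at 3.26 CPM or less, and the epithelial EPCAM and CDH1 were at 0.250 CPM or less, while the epithelial keratins KRT8 and KRT18 were at 95.3 to 253 CPM. Both keratins were called higher in KDAC8H143A and with each inhibitor (log2 fold changes of 0.21 to 0.72), and the fibroblast markers moved both ways. In KDAC8H143A FN1 (-1.41) and COL1A2 were lower and COL1A1 (2.06) and THY1 (1.94) higher, of 5 tested. With Tubastatin A and PCI-34051, of 4 tested, VIM was lower (-0.24 and -0.39) and COL1A1 (1.71 and 1.47) and FN1 (1.62 and 2.02) higher. In the KDAC6 lines VIM, COL1A1 and FN1 did not pass the threshold. These values are not corrected for GC content, and the part of these markers in the results below was not tested. The mutated genes were still transcribed, HDAC6 (which encodes KDAC6) at 5.86 to 7.46 CPM in KDAC6H216A and 9.72 to 16.97 CPM in WT, and HDAC8 (which encodes KDAC8) at 11.4 to 14.7 CPM in KDAC8H143A and 11.6 to 13.4 CPM in WT, where gene counts do not show a base change.

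In WT cells, levels compared per kilobase of transcript covered a wide range. UBE2C, the ubiquitin-conjugating enzyme of the anaphase promoting complex, was highest at 82.1 ± 8.74 CPM per kb (SD, n = 4). PTTG1 (securin) at 73.8 ± 7.58, TPX2 at 73.5 ± 3.55 and TOP2A at 72.5 ± 3.16 CPM per kb followed and did not differ from one another beyond their spread. The lowest were KIF15 at 6.81 ± 0.600, CDC25C at 4.68 ± 0.630 and CENPI at 3.80 ± 0.351 CPM per kb.

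Summed over the 50 genes, their share of all protein-coding counts was lower in 4 of the 5 groups than in WT. It was 0.659% to 0.696% over the WT libraries and 0.683% to 0.746% in KDAC6H216A. It was 0.477% to 0.508% in KDAC6H611A, 0.333% to 0.375% in KDAC8H143A, 0.436% to 0.456% under Tubastatin A and 0.364% to 0.411% under PCI-34051. Every library of these 4 groups lay below every WT library. Of the KDAC6 libraries low in mitochondrial rRNA, KDAC6H611A replicate 4, at 0.499%, lay among the others of its line. KDAC6H216A replicate 1, at 0.683%, was the lowest of its line and lay within the WT range.

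**Figure D1:**
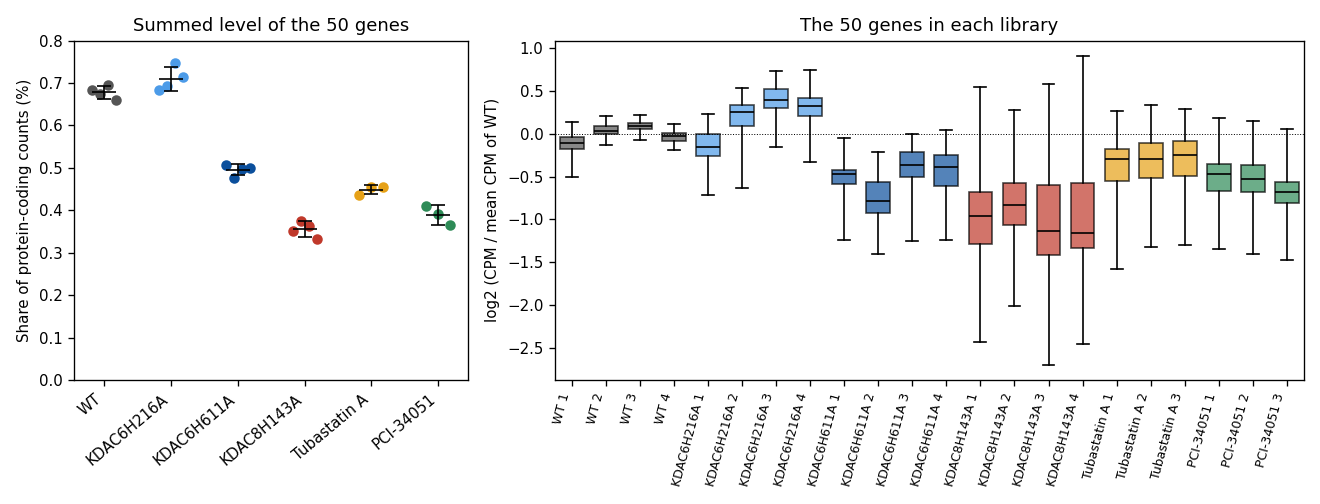
Left, summed share of protein-coding counts (percent, axis from 0) taken by the 50 genes in each of 22 libraries, with group mean and SD; right, spread of the 50 genes in each library as log2 of CPM over the mean CPM of WT (box, quartiles and median; whiskers, lowest and highest gene). KDAC6H611A, KDAC8H143A and both inhibitor groups lie below WT in share, and KDAC6H216A replicates 2 to 4 have medians of 0.25 to 0.40 above it while replicate 1 has -0.15.

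The test for each comparison was the quasi-likelihood test of edgeR with Benjamini-Hochberg adjustment over all genes tested, and a gene was called at an adjusted p below 0.01. Log2 fold changes are given as group minus WT, with their standard error after ±. In KDAC6H216A, 0 of the 50 genes were called in either direction (14 were higher and 2 lower at an unadjusted p under 0.05, and DESeq2 called 1, lower), where 0.621% of all genes tested were called lower and 0.214% higher. In KDAC6H611A, 25 of 50 were lower and 0 higher, where 6.24% of all genes were lower and 6.08% higher, and 0 were higher at an unadjusted p under 0.05 or by DESeq2, which called 28 lower. In KDAC8H143A, 42 of 50 were lower and 3 higher, where 26.9% of all genes were lower and 31.6% higher. With Tubastatin A, 41 of 50 were lower and 0 higher, where 28.6% of all genes were lower and 29.3% higher, and 2 genes were higher at an unadjusted p under 0.05 with 0 by DESeq2. With PCI-34051, 48 of 50 were lower and 0 higher, where 25.6% of all genes were lower and 25.5% higher, and 0 were higher at an unadjusted p under 0.05 or by DESeq2.

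The members' median log2 fold change was 0.15 in KDAC6H216A (median of all genes 0.00), -0.46 in KDAC6H611A (all genes 0.03) and -0.998 in KDAC8H143A (all genes 0.08). Under Tubastatin A it was -0.41 and under PCI-34051 -0.66, where the medians of all genes were -0.003 and -0.01. Scaling by the total count alone, which leaves in the mitochondrial rRNA, moved the median of all genes to 0.36 for KDAC8H143A, 0.35 for Tubastatin A and 0.38 for PCI-34051. Under it 4 of the 50 were lower and 0 higher in KDAC6H611A in place of 25 lower, where 2.47% of all genes were lower and 3.73% higher. In KDAC8H143A 33 were lower and 4 higher (all genes 15.5% lower and 40.3% higher), with Tubastatin A 17 lower and 8 higher (all genes 12.1% lower and 51.9% higher), and with PCI-34051 27 lower and 2 higher (all genes 9.62% lower and 51.4% higher). The members' median lay 0.47, 1.07, 0.40 and 0.65 below that of all genes in these 4 comparisons under this scaling, and 0.48, 1.07, 0.40 and 0.65 below it in the TMM-scaled fits. Counted without a model on CPM scaled over all 22 libraries, every library lay below every WT library for 34 of the 50 genes in KDAC6H611A (13.7% of all genes), 44 in KDAC8H143A (31.7%), 34 under Tubastatin A (24.1%) and 45 under PCI-34051 (22.9%).

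By gene, 20 of 50 were lower in all 4 of KDAC6H611A, KDAC8H143A, Tubastatin A and PCI-34051, and each of the 50 was lower in at least 1 of them. These comparisons share their WT libraries, and the same counts were not made over all genes. Of all genes, 6.24%, 26.9%, 28.6% and 25.6% were lower in the 4 comparisons in turn. What is particular to the 50 in these counts was therefore not tested. The genes lower in only 1 were BUB3 and KIF20A (in KDAC8H143A), and CENPA and PLK1 (with PCI-34051).

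**Figure D2:**
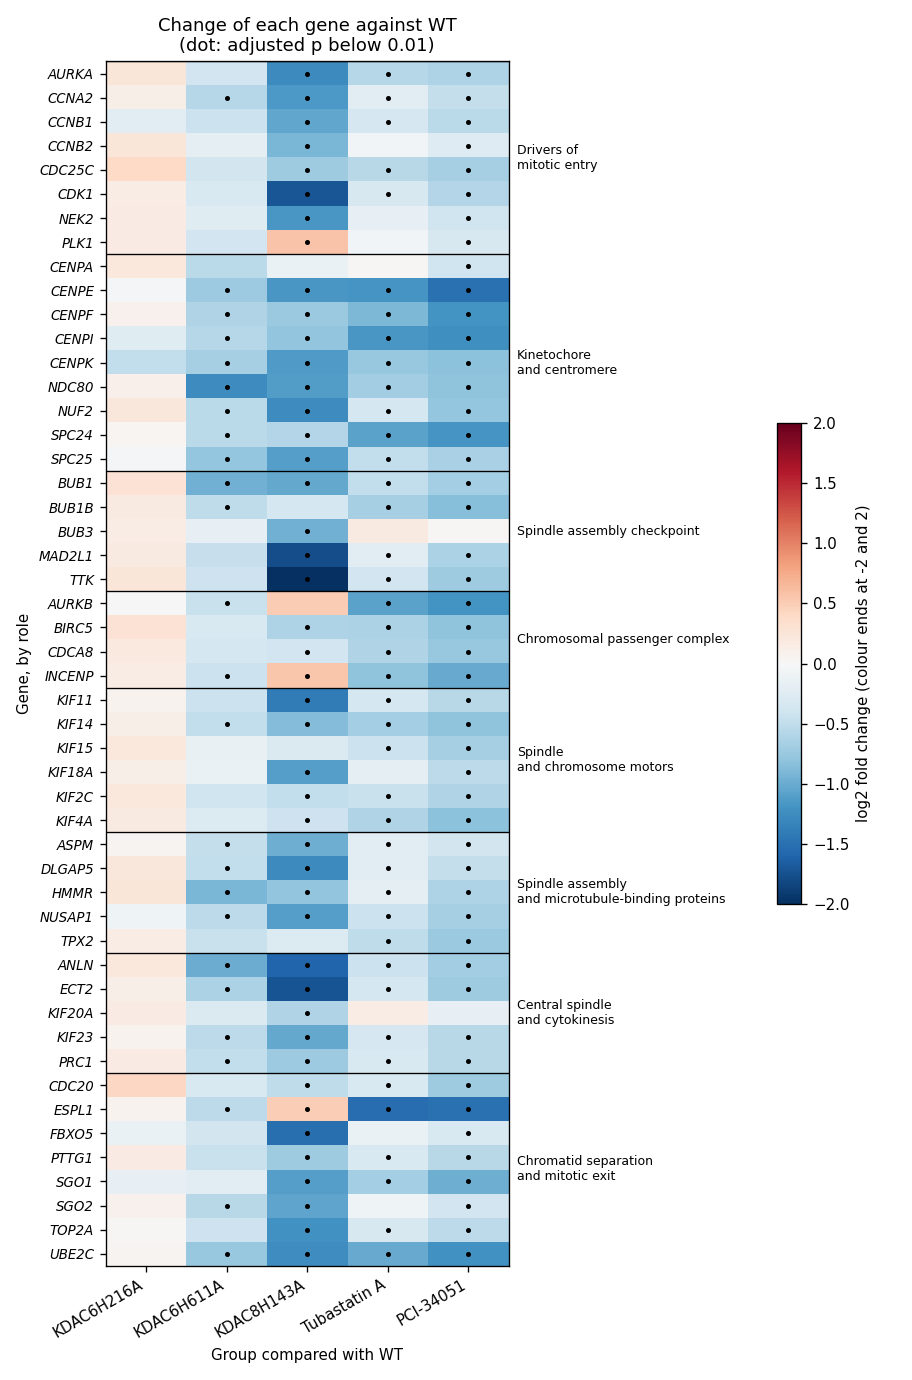
Log2 fold change against WT (colour, ends at -2 and 2) of each of the 50 genes, in rows by role, in 5 comparisons with WT, with a dot at an adjusted p below 0.01. The KDAC6H216A column has 0 dots, KDAC6H611A 25, KDAC8H143A 45 of which 3 mark a rise (ESPL1, INCENP and PLK1), Tubastatin A 41 and PCI-34051 48.

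Among the 8 drivers of mitotic entry, 1 was lower in KDAC6H611A. This was CCNA2, the cyclin of S and G2 phase, a call kept in 2 of 8 fits that left out 1 library. In KDAC8H143A 7 drivers were lower and 1 higher, while 5 were lower with Tubastatin A and 8 with PCI-34051. Counts by role, here and below, have as their background every gene tested. The share of those called lower was 25.6% (PCI-34051), 26.9% (KDAC8H143A), 28.6% (Tubastatin A) and 6.24% (KDAC6H611A). For KDAC8H143A another 31.6% were called higher. CDK1, the kinase that starts mitosis, stood at 58.9, 63.4, 68.6 and 65.9 CPM in the 4 WT libraries and at 19.4, 28.9, 15.1 and 11.7 CPM in KDAC8H143A. The log2 fold change there was -1.72 ± 0.22 (adjusted p = 3.4e-05), and no library of the line reached WT. CDK1 was at 52.3, 58.6 and 57.1 CPM with Tubastatin A and 48.4, 47.8 and 42.4 CPM with PCI-34051, with log2 fold changes of -0.32 ± 0.05 (0.04 when scaled by total count alone) and -0.58 ± 0.06. In the KDAC6 lines it was at 54.96, 75.2, 88.2 and 85.7 CPM in KDAC6H216A and 49.9, 37.3, 63.97 and 52.4 CPM in KDAC6H611A, where KDAC6H216A lay on both sides of the WT range, 1 KDAC6H611A library lay within it, and neither passed the test.

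CCNB1, the cyclin B1 partner of CDK1, was at 98.4, 119, 115 and 112 CPM in WT. It was at 48.98, 60.96, 52.3 and 47.8 CPM in KDAC8H143A, below every WT library (-1.03 ± 0.10, adjusted p = 6.8e-06). With Tubastatin A it was at 91.4, 101.3 and 94.96 CPM, partly within WT (-0.34 ± 0.05, and 0.02 when scaled by total count alone), and with PCI-34051 at 87.1, 85.8 and 74.01 CPM (-0.54 ± 0.06). KDAC6H216A at 67.7, 107, 125 and 111 CPM and KDAC6H611A at 79.00, 55.6, 102 and 90.01 CPM spread widely and did not pass the test. PLK1, the polo kinase of centrosomes and kinetochores, went the other way in KDAC8H143A, where 115, 95.97, 119 and 126 CPM lay above all WT libraries at 71.97, 84.6, 80.4 and 79.5 CPM (0.58 ± 0.11, adjusted p = 0.0005), although the value was -0.04 once trends with GC content and length were removed. The Aurora kinase of centrosomes, AURKA, had log2 fold changes of -1.28 ± 0.11 in KDAC8H143A, -0.57 ± 0.05 under Tubastatin A and -0.61 ± 0.07 under PCI-34051, all called lower.

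The kinetochore and centromere genes were the role with most calls in KDAC6H611A, 8 of 9. In KDAC8H143A 8 of 9 were also lower, but with GC content and length corrected only 1 of 9 (SPC24) was still called. Under Tubastatin A 8 were lower and under PCI-34051 9, to be read beside the shares of all genes given above. Of the calls in KDAC6H611A, CENPI was kept in 2 and CENPK in 1 of 8 fits that left out 1 library. NDC80, the long arm of the complex that grips microtubule ends, was at 32.9, 34.7, 38.4 and 34.3 CPM in WT and 14.8, 13.3, 14.7 and 14.8 CPM in KDAC6H611A. The 4 KDAC6H611A libraries lay in a narrow band less than 1 CPM above or below 14, far under WT, and the log2 fold change of -1.26 ± 0.10 (adjusted p = 3.1e-06) was the largest fall of the 50 in that line. NDC80 lies at chr18:2571557-2616635 (GRCh38, plus strand), and of 19 other protein-coding genes tested that start within 5 Mb of it, 13 were lower and 1 higher in KDAC6H611A, with a median log2 fold change of -0.90. Around BUB1 11 of 34 such genes were lower and 0 higher, and around ANLN 7 of 25 and 1 (medians -0.38 and -0.43). For SPC25 it was 13 of 32 and 1, and for SGO2 18 of 48 and 0 (medians -0.52 and -0.47). Around HMMR 1 of 14 was lower and 0 higher, and around CENPE 0 and 0 of 29. Over all genes 6.24% were lower and 6.08% higher. The part of the neighbours in these falls was not tested. In KDAC6H216A, NDC80 was at 31.4, 43.5, 44.5 and 40.6 CPM and did not pass the test. It was at 17.1, 17.5, 13.7 and 13.8 CPM in KDAC8H143A (-1.12 ± 0.12), 21.95, 23.6 and 25.1 CPM with Tubastatin A (-0.69 ± 0.07) and 21.4, 23.7 and 19.7 CPM with PCI-34051 (-0.80 ± 0.08), all below WT.

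Its partners in the same complex fell with it. In KDAC6H611A the log2 fold changes were -0.54 ± 0.10 for NUF2, -0.53 ± 0.11 for SPC24 and -0.77 ± 0.18 for SPC25, and in KDAC8H143A -1.25 ± 0.11, -0.58 ± 0.11 and -1.11 ± 0.18. SPC24 was among the largest falls with Tubastatin A, at 26.1, 26.2 and 29.4 CPM against 43.02, 55.8, 54.7 and 55.4 CPM in WT (-1.07 ± 0.07, adjusted p = 8.9e-11). All 4 subunits were thus called lower in KDAC6H611A, KDAC8H143A and with both inhibitors. In KDAC6H611A, of 8 fits that left out 1 library, NDC80 was kept in 8, NUF2 in 7, SPC24 in 4 and SPC25 in 1. In KDAC8H143A, only SPC24 of the 4 was still called with GC content and length corrected.

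CENPE, the kinetochore's motor for carrying chromosomes to the spindle equator, was at 187, 182, 179.7 and 179 CPM in WT, with 183, 180.0, 204 and 181 CPM in KDAC6H216A. It was at 109.9, 105, 108 and 107 CPM in KDAC6H611A, 92.3, 74.5, 68.2 and 78.5 CPM in KDAC8H143A, 87.1, 85.8 and 88.8 CPM with Tubastatin A and 74.04, 68.5 and 65.3 CPM with PCI-34051. The 4 groups were clear of WT by a wide gap, although in KDAC8H143A CENPE was not called with GC content and length corrected. CENPE had the largest fall of all 50 genes with PCI-34051, -1.49 ± 0.06 (adjusted p = 1.0e-12), and the next to largest with Tubastatin A, -1.17 ± 0.05 (adjusted p = 1.8e-13). CENPI, of the inner kinetochore, was at 19.6, 22.97, 22.9 and 19.4 CPM in WT, 10.7, 10.9 and 9.36 CPM with Tubastatin A (-1.16 ± 0.09) and 9.59, 9.23 and 10.6 CPM with PCI-34051 (-1.22 ± 0.10), where a pseudogene copy (CENPIP1) held 7.25% as many counts as CENPI over the table. CENPA, the histone H3 variant that marks the centromere, had log2 fold changes of -0.14 ± 0.16 in KDAC8H143A and 0.02 ± 0.10 with Tubastatin A that did not pass the test, and CENPA overlaps SLC35F6 on its own strand. CENPK was the gene nearest the threshold in KDAC6H216A (-0.49 ± 0.10, adjusted p = 0.036).

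**Figure D3:**
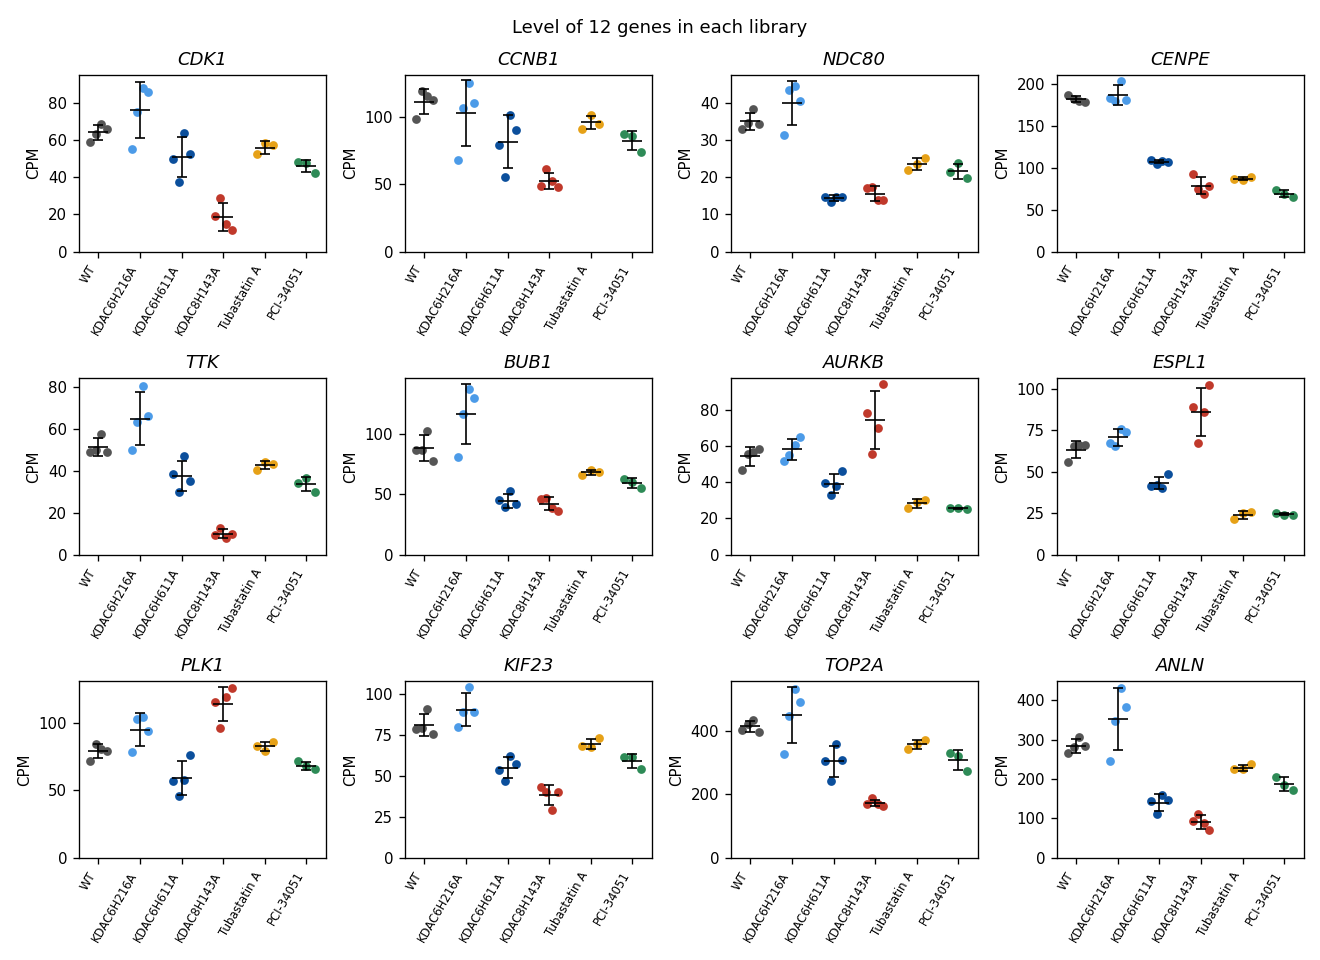
Level of 12 of the genes in CPM (linear axes from 0) in each of the 22 libraries, with mean and SD of each group. TTK and CDK1 are lowest in KDAC8H143A, NDC80 is near 14 CPM in KDAC6H611A, and AURKB, ESPL1 and PLK1 are highest in KDAC8H143A, where AURKB did not pass the test.

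The checkpoint genes, whose products hold back anaphase until every kinetochore is attached, were lower in KDAC6H611A for 2 of 5 and in each of KDAC8H143A, Tubastatin A and PCI-34051 for 4 of 5. TTK, the kinase (MPS1) at the head of the checkpoint, was at 48.8, 50.1, 57.3 and 48.9 CPM in WT and 9.51, 12.7, 7.90 and 9.96 CPM in KDAC8H143A. This was the largest fall of the 50 genes in any comparison with WT, -2.30 ± 0.14 (adjusted p = 3.9e-07), and remained -1.31 ± 0.11 with GC content and length corrected. TTK lies at chr6:80003887-80042527 (GRCh38, plus strand), where of 25 other protein-coding genes tested within 5 Mb 23 were lower in KDAC8H143A and 1 higher, with a median of -1.27. With Tubastatin A 17 of these 25 neighbours were higher and 2 lower (median 0.54). Of all genes, 26.9% were lower and 31.6% higher in KDAC8H143A, and 28.6% and 29.3% with Tubastatin A. The neighbour values are not corrected for GC content, and the part of the neighbours was not tested. TTK was at 49.96, 63.00, 80.5 and 65.9 CPM in KDAC6H216A, 38.2, 29.9, 47.03 and 35.1 CPM in KDAC6H611A, 40.4, 44.01 and 43.2 CPM with Tubastatin A and 34.2, 36.7 and 29.9 CPM with PCI-34051, of which only the inhibitor groups were called (-0.39 ± 0.06 and -0.71 ± 0.07).

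MAD2L1, the MAD2 protein that inhibits CDC20, was at 60.4, 67.2, 67.2 and 61.1 CPM in WT and 17.9, 23.5, 14.5 and 15.9 CPM in KDAC8H143A, next after TTK in size (-1.78 ± 0.14, adjusted p = 1.7e-06). Of 18 neighbours tested within 5 Mb of it, 13 were lower in KDAC8H143A and 1 higher (median -0.78). Around TOP2A, also lower, 33 of 158 were lower and 63 higher. Over all genes 26.9% were lower and 31.6% higher in KDAC8H143A, and these neighbour values are not corrected for GC content. With Tubastatin A MAD2L1, at 56.9, 60.3 and 62.3 CPM, overlapped WT (-0.22 ± 0.05, and 0.14 when scaled by total count alone). BUB1, the checkpoint kinase at the kinetochore, was at 86.7, 86.2, 103 and 77.6 CPM in WT, 81.00, 116.5, 137 and 129.6 CPM in KDAC6H216A and 44.8, 39.1, 52.5 and 41.7 CPM in KDAC6H611A. The KDAC6 lines thus lay on either side, with log2 fold changes of 0.29 ± 0.12 (not past the threshold) and -0.96 ± 0.11 (adjusted p = 5.7e-05). BUB1 was at 45.9, 47.3, 38.9 and 36.1 CPM in KDAC8H143A (-1.02 ± 0.12), 66.1, 70.4 and 68.1 CPM with Tubastatin A (-0.49 ± 0.06) and 62.98, 60.01 and 55.03 CPM with PCI-34051 (-0.68 ± 0.07). BUB3, which also works outside the checkpoint in splicing, was called only in KDAC8H143A (-0.96 ± 0.12) and stood at 0.18 ± 0.06 with Tubastatin A and 0.03 ± 0.07 with PCI-34051.

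The chromosomal passenger complex, whose kinase AURKB corrects wrong attachments, had all 4 members lower with each inhibitor. AURKB was at 46.5, 55.8, 56.8 and 58.2 CPM in WT, 25.6, 29.1 and 30.2 CPM with Tubastatin A (-1.06 ± 0.07, adjusted p = 6.5e-11) and 25.8, 25.8 and 25.2 CPM with PCI-34051 (-1.19 ± 0.06, adjusted p = 5.0e-11). The inhibitor libraries lay far below WT and close to one another. In KDAC8H143A the direction was the opposite for AURKB, at 78.2, 55.7, 69.7 and 94.1 CPM (0.50 ± 0.15, adjusted p = 0.011, short of the threshold), and for INCENP, the scaffold of the complex, at 129, 93.01, 134 and 175 CPM against 83.3, 100.9, 96.5 and 91.6 CPM in WT. INCENP passed it (0.56 ± 0.16, adjusted p = 0.0089), but replicate 2 lay within the WT range, leaving out any 1 library kept the call in 1 of 8 fits, and the value was -0.23 with GC content and length corrected. The other subunits, BIRC5 (survivin) at -0.61 ± 0.10 and CDCA8 (borealin) at -0.38 ± 0.10, were lower there. AURKB was at 51.6, 55.3, 60.4 and 65.1 CPM in KDAC6H216A and 39.6, 33.1, 38.1 and 46.1 CPM in KDAC6H611A, the latter called (-0.44 ± 0.10, adjusted p = 0.0083) with its highest library just under the lowest of WT.

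Among the 6 spindle and chromosome motors, 1 was lower in KDAC6H611A (KIF14, -0.49 ± 0.09), 5 in KDAC8H143A, 5 under Tubastatin A and 6 under PCI-34051. KIF11, the kinesin (Eg5) that pushes the spindle poles apart, was at 77.4, 87.00, 95.97 and 78.7 CPM in WT and 30.3, 37.1, 29.8 and 27.3 CPM in KDAC8H143A, well apart from WT (-1.39 ± 0.12, adjusted p = 2.2e-06). It was at 73.2, 100.3, 110.3 and 98.6 CPM in KDAC6H216A and 72.9, 43.7, 68.4 and 61.3 CPM in KDAC6H611A, neither past the threshold, although every KDAC6H611A library was below WT. With Tubastatin A it was at 68.98, 73.4 and 73.9 CPM (-0.36 ± 0.05) and with PCI-34051 at 66.1, 63.04 and 57.7 CPM (-0.55 ± 0.06). With PCI-34051 the motors ran from -0.82 ± 0.07 (KIF4A, which shapes the midzone and chromosome arms) to -0.53 ± 0.09 (KIF18A, which damps chromosome movement).

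The spindle assembly and microtubule-binding proteins were lower for 4 of 5 in KDAC6H611A and KDAC8H143A and for 5 of 5 with each inhibitor. TPX2, which carries AURKA to the spindle, was at 241, 258, 270.5 and 253 CPM in WT, 208, 319.7, 356 and 331 CPM in KDAC6H216A and 189, 138, 201 and 210.2 CPM in KDAC6H611A. It was the member of this role not called in either KDAC6H611A (-0.45 ± 0.11) or KDAC8H143A (209, 188, 215 and 203 CPM, -0.27 ± 0.09), and fell to 189.9, 194 and 198 CPM with Tubastatin A (-0.51 ± 0.04) and 171, 167 and 151 CPM with PCI-34051 (-0.75 ± 0.06). HMMR, which helps to organise spindle poles, was among the 4 largest falls in KDAC6H611A, at 32.05, 23.7, 33.7 and 28.3 CPM against 51.7, 55.9, 59.98 and 58.05 CPM (-0.91 ± 0.10, adjusted p = 5.8e-05). In KDAC8H143A HMMR fell by 0.79, but with GC content and length corrected it was at 0.25, and with Tubastatin A its -0.19 ± 0.05 became 0.17 when scaled by total count alone. ASPM, a spindle pole protein, and NUSAP1, which bundles microtubules near chromosomes, fell by 0.47 and 0.53 in KDAC6H611A.

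The genes of the central spindle and of cytokinesis were lower for 4 of 5 in KDAC6H611A, 5 of 5 in KDAC8H143A and 4 of 5 with each inhibitor. ANLN (anillin), which anchors the contractile ring, was at 265, 280.5, 306 and 283 CPM in WT, 144, 110.4, 161 and 146 CPM in KDAC6H611A (-0.99 ± 0.11, adjusted p = 4.0e-05) and 94.4, 112, 88.3 and 70.7 CPM in KDAC8H143A (-1.59 ± 0.13, adjusted p = 1.9e-06). Both lines lay far below WT. ECT2, the exchange factor that switches on RhoA at the cell equator, was at 190.3, 185, 194 and 175 CPM in WT and 53.4, 72.9, 38.2 and 52.5 CPM in KDAC8H143A (-1.73 ± 0.16, adjusted p = 4.7e-06). KIF23, the motor of the centralspindlin complex, was at 78.6, 79.1, 90.5 and 75.7 CPM in WT, 79.8, 89.1, 104 and 88.9 CPM in KDAC6H216A, 53.7, 46.9, 62.3 and 57.4 CPM in KDAC6H611A and 43.4, 40.04, 29.5 and 40.3 CPM in KDAC8H143A. It was lower than WT in KDAC6H611A (-0.53 ± 0.09) and KDAC8H143A (-1.03 ± 0.13) without overlap, and with the inhibitors it was at 67.96, 67.7 and 73.1 CPM (-0.34 ± 0.05, and 0.02 when scaled by total count alone) and 61.7, 61.6 and 54.5 CPM (-0.55 ± 0.06). KIF20A, which brings the passenger complex to the midzone, was the exception with the inhibitors, at 0.15 ± 0.05 and -0.16 ± 0.06, both short of the threshold, and its gene overlaps CDC23 and BRD8 on the other strand, where strand use in the counting is not given in the sources used here.

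Of the 8 genes of chromatid separation and mitotic exit, 3 were lower in KDAC6H611A, 7 were lower and 1 higher in KDAC8H143A, 6 were lower with Tubastatin A and 8 with PCI-34051. ESPL1 (separase), the protease that cuts cohesin at anaphase, was at 55.8, 65.4, 66.3 and 66.01 CPM in WT. It was at 21.2, 25.2 and 25.7 CPM with Tubastatin A (-1.52 ± 0.07, adjusted p = 3.9e-13), the largest fall of the 50 there, and 24.95, 24.1 and 23.8 CPM with PCI-34051 (-1.49 ± 0.06, adjusted p = 1.3e-12). In KDAC8H143A it was higher, at 89.1, 67.2, 86.1 and 102 CPM, above every WT library (0.49 ± 0.13, adjusted p = 0.0051, kept in 1 of 8 fits that left out 1 library, and -0.22 with GC content and length corrected), and in KDAC6H611A lower, at 41.7, 42.00, 40.2 and 48.7 CPM (-0.53 ± 0.09). PTTG1 (securin), the inhibitor of separase, was lower in KDAC8H143A (-0.71 ± 0.11), with PCI-34051 (-0.55 ± 0.07) and with Tubastatin A (-0.30 ± 0.06), the last becoming 0.12 with GC content and length corrected and 0.05 when scaled by total count alone.

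UBE2C, with a processed copy (UBE2CP5) holding 7.08% as many counts, was lower in all 4 comparisons, at 58.1, 70.3, 69.1 and 57.8 CPM in WT, 37.5, 28.2, 41.5 and 41.3 CPM in KDAC6H611A, 26.5, 30.3, 23.99 and 23.8 CPM in KDAC8H143A, 33.7, 36.99 and 32.9 CPM with Tubastatin A and 30.6, 29.8 and 28.6 CPM with PCI-34051. None of these libraries reached WT, and the log2 fold changes were -0.75 ± 0.11, -1.24 ± 0.11, -1.01 ± 0.06 and -1.21 ± 0.07. CDC20, the activator of the anaphase promoting complex, was at 98.2, 114, 114 and 111 CPM in WT, 98.5, 159, 181 and 184 CPM in KDAC6H216A and 80.2, 55.9, 97.5 and 113 CPM in KDAC6H611A. Replicates 2 to 4 of KDAC6H216A lay well above WT and replicate 1 at its lower end, and neither line passed the test. CDC20 was at 63.7, 75.8, 80.3 and 76.2 CPM in KDAC8H143A (-0.51 ± 0.10), 95.4, 90.5 and 101.3 CPM with Tubastatin A (-0.31 ± 0.05, and 0.04 when scaled by total count alone) and 74.4, 73.1 and 67.6 CPM with PCI-34051 (-0.71 ± 0.05). TOP2A, the topoisomerase that untangles sister DNA, was at 402, 420.1, 434 and 394 CPM in WT, 328, 445, 531 and 490.1 CPM in KDAC6H216A, 305, 242, 359 and 308 CPM in KDAC6H611A and 171, 188, 170.1 and 162 CPM in KDAC8H143A (-1.21 ± 0.09, adjusted p = 1.1e-06). The KDAC8H143A libraries lay apart from all the others, and TOP2A was at 343, 358 and 371 CPM with Tubastatin A (-0.32 ± 0.05, and 0.03 when scaled by total count alone) and 331, 319 and 273 CPM with PCI-34051 (-0.53 ± 0.06). FBXO5 (EMI1), which restrains the complex before mitosis, fell by 1.51 in KDAC8H143A. It lies at chr6:152970519-152983579 (GRCh38, minus strand) among neighbours of which 25 of 34 were lower there and 1 higher (median -1.13). Over all genes 26.9% were lower and 31.6% higher in KDAC8H143A. The neighbour values are not corrected for GC content, and the part of the neighbours was not tested.

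GC content moved with the changes in KDAC8H143A. Of the 50 genes, 20 have a transcript GC content below 40%, 20 of 40% to 50% and 10 of 50% and over. In KDAC8H143A the medians over every gene tested were -0.81, -0.22 and 0.72 in these bands, and those of the mitotic genes -1.19, -0.77 and -0.44. The mitotic genes were therefore below the median of all genes in each band, and PLK1, INCENP and ESPL1, called higher, each have a GC content over 50% and rose less than the median gene of that band. With trends of GC content and length removed from each library, 26 were lower and 0 higher (all genes 22.6% lower and 25.3% higher), the median of the 50 was -0.42 and that of all genes 0.06. All 5 genes of the central spindle and cytokinesis, 6 of 8 drivers of mitotic entry and 4 of 5 checkpoint genes were still called, but 1 of 9 kinetochore genes (SPC24, -0.91). UBE2C (-1.39), TTK (-1.31) and CDC20 (-1.08) then had the largest falls. In the other comparisons the bands differed by less, with medians of all genes of -0.10, -0.01 and 0.11 in KDAC6H611A, 0.17, 0.03 and -0.11 with Tubastatin A and 0.12, 0.00 and -0.08 with PCI-34051, and the corrected counts of 50 were 20 lower in KDAC6H611A (all genes 6.79% lower and 5.97% higher), 43 lower and 1 higher with Tubastatin A (27.9% lower and 28.9% higher), and 45 lower with PCI-34051 (24.9% lower and 26.3% higher).

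**Figure D4:**
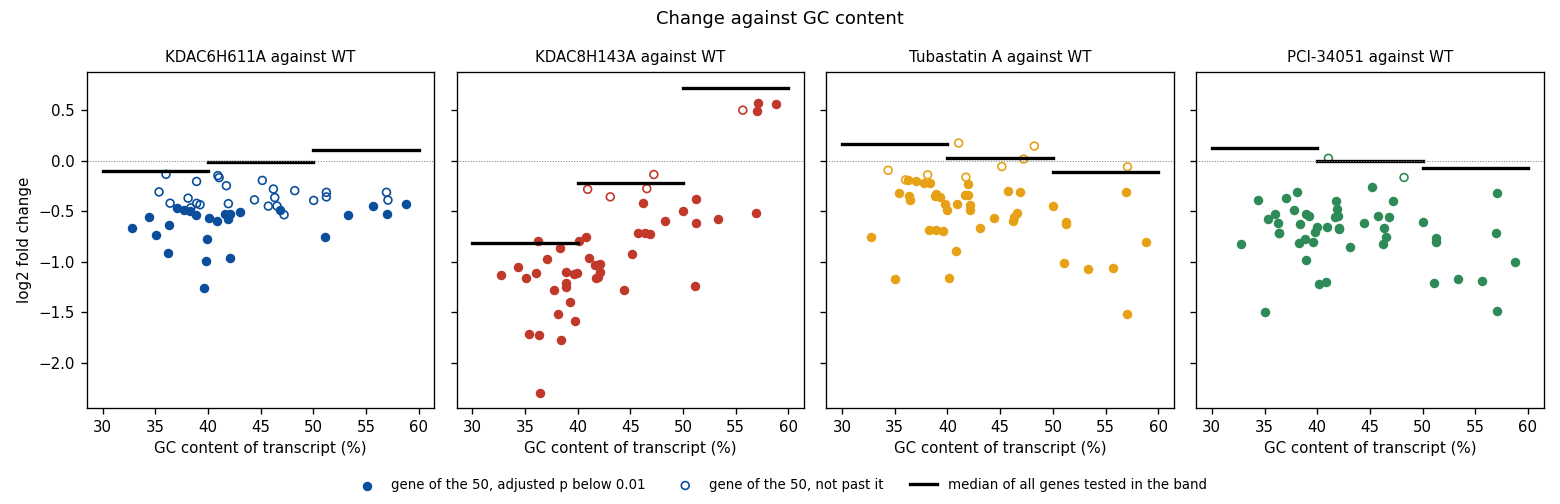
Log2 fold change against WT of the 50 genes (filled, adjusted p below 0.01) by GC content of the transcript in percent, in 4 comparisons, with the median of all genes tested in 3 bands of GC content as bars. In KDAC8H143A the bars climb from -0.81 to 0.72 and most of the mitotic genes lie below the bars and climb with them, while in the other panels the bars stay between -0.11 and 0.17.

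In KDAC6H216A the result turned on replicate 1, the library low in mitochondrial rRNA. Its median over the 50 genes lay 0.15 below the WT mean on the log2 scale, while replicates 2 to 4 lay 0.25 to 0.40 above it. Without that library 22 of the 50 genes were higher and 1 (CENPK, -0.50) lower, while the calls over all genes also rose, to 12.2% higher and 13.8% lower of those tested. In that fit CDC20 stood at 0.54, CDC25C at 0.43, BUB1 at 0.39 and BIRC5 at 0.37 on the log2 scale, and the median of the 50 was 0.21. CDC25C overlaps FAM53C on the other strand. The part of mitochondrial rRNA in this difference was not tested.

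The KDAC6 lines were also compared with each other. KDAC6H611A was lower than KDAC6H216A in 26 of the 50 genes and higher in 0 (0 also at an unadjusted p under 0.05 and by DESeq2), where 5.31% of all genes tested were lower and 4.61% higher, and all 50 log2 fold changes were below 0. The largest falls were those of NDC80 (-1.38 ± 0.10), BUB1 (-1.28 ± 0.13), ANLN (-1.23 ± 0.15) and HMMR (-1.19 ± 0.12). Without KDAC6H216A replicate 1 and KDAC6H611A replicate 4, both low in mitochondrial rRNA, 36 were lower and 0 higher (all genes 7.19% lower and 6.66% higher). Leaving out KDAC6H216A replicate 1 alone moved the count to 42 (all genes 9.68% lower and 9.8% higher), and it was 13 or 14 without any 1 of KDAC6H216A replicates 2, 3 and 4 and KDAC6H611A replicates 1 and 3. Over all genes 400 to 631 were then lower, in place of 795. Against WT, the KDAC6H611A count of 25 was 12 to 15 without any 1 of WT replicates 2, 3 and 4 and KDAC6H611A replicate 1, and 24 without its low library, replicate 4. Over all genes 575 to 631 and 834 were lower in these fits, in place of 919. The 12 genes lower than WT in all 8 fits that left out 1 library were ANLN, BUB1, CENPE, CENPF, ECT2, ESPL1, HMMR, KIF14, KIF23, NDC80, NUSAP1 and UBE2C.

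KDAC8H143A was lower than KDAC6H611A in 18 genes and higher in 4, where 20.9% of all genes were lower and 24.3% higher. TTK (-1.87 ± 0.18), CDK1 (-1.40 ± 0.25) and MAD2L1 (-1.30 ± 0.20) were the largest falls, and ESPL1 (1.03 ± 0.15), INCENP (1.00 ± 0.18), PLK1 (0.97 ± 0.16) and AURKB (0.96 ± 0.17) rose. This split depended on the correction for GC content and length, after which 4 were lower and 8 higher, where 17.1% of all genes were lower and 19.2% higher. When scaled by total count alone 5 were lower and 4 higher, where 10% of all genes were lower and 28.9% higher, so that under both settings the members' shares lay at or below those of all genes. Tubastatin A was higher than PCI-34051 in 19 genes and lower in 0 (0 also at an unadjusted p under 0.05 and by DESeq2), where 3.45% of all genes were higher and 2.2% lower, at doses that differ. The rises were small, with MAD2L1 at 0.41 ± 0.06, CDC20 at 0.40 ± 0.05, HMMR at 0.43 ± 0.06 and CENPE at 0.32 ± 0.05, while ESPL1 did not differ beyond its error (-0.03 ± 0.07). With the spread taken from all 6 groups in one fit, 0 of the 19 remained, where 7 of all 18480 genes tested were higher and 0 lower. Without any 1 of the Tubastatin A libraries 9 to 11 of the 50 were called. Over all genes 260 to 323 were then higher, in place of 636.

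**Figure D5:**
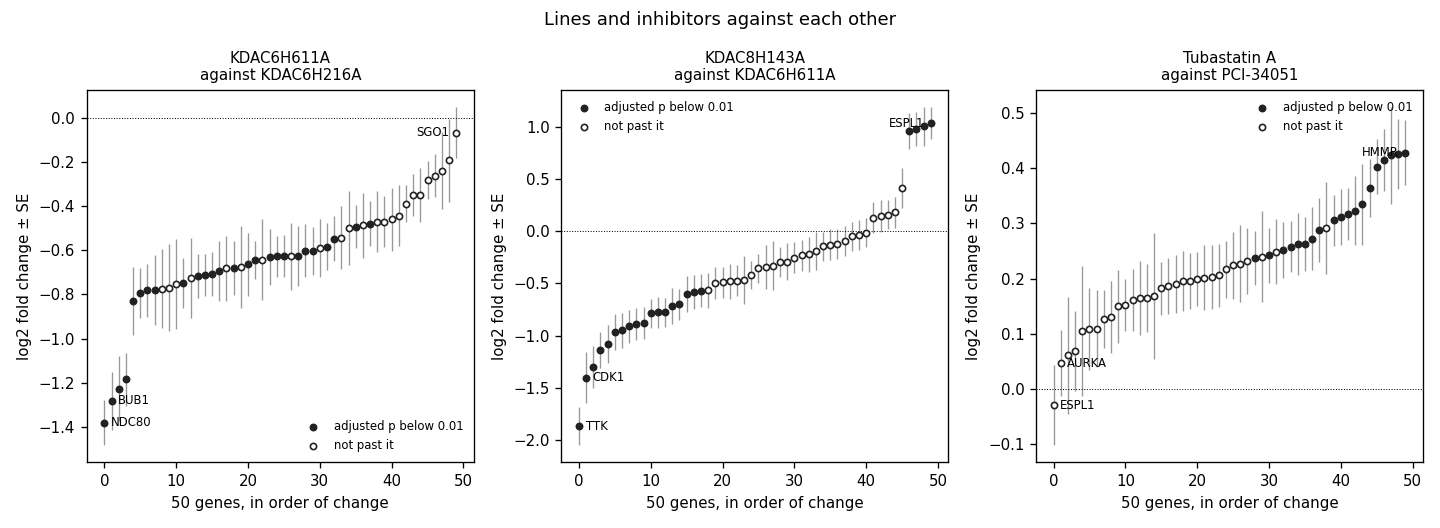
Log2 fold change with SE of the 50 genes, in order of change, for KDAC6H611A against KDAC6H216A, KDAC8H143A against KDAC6H611A and Tubastatin A against PCI-34051 (filled, adjusted p below 0.01). All 50 points lie below 0 in the first panel, TTK and ESPL1 mark the ends of the second, and 49 of 50 lie above 0 in the third.

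Genes beside the 50 in the same pathway were counted from lists chosen by function. They are to be read beside the shares of all genes called lower, 6.24% in KDAC6H611A, 26.9% in KDAC8H143A, 28.6% under Tubastatin A and 25.6% under PCI-34051. The shares of all genes called higher were 6.08%, 31.6%, 29.3% and 25.5% in turn. In the outer kinetochore and SKA list of 18 genes, 0 were called in KDAC6H216A, 9 were lower in KDAC6H611A, 9 lower and 1 higher in KDAC8H143A, 14 lower and 1 higher with Tubastatin A and 15 lower with PCI-34051. SKA1, of the ring-like complex that follows microtubule ends, fell by 0.93 in KDAC6H611A and 1.13 with PCI-34051. Of 14 further genes of the inner kinetochore, 1 (CENPU, -1.12 ± 0.10) was lower in KDAC6H611A, 8 were lower and 5 higher in KDAC8H143A, 12 lower and 1 higher with Tubastatin A and 11 lower and 1 higher with PCI-34051. CENPH was the one that rose with both inhibitors (0.85 ± 0.09 and 0.43 ± 0.10). The 5 of 14 higher in KDAC8H143A lay near the 31.6% of all genes. Of 36 other motors and spindle proteins, 11 were lower in KDAC6H611A, 18 lower and 5 higher in KDAC8H143A, 27 lower and 3 higher with Tubastatin A and 30 lower and 2 higher with PCI-34051. Of 8 condensin subunits, which compact mitotic chromosomes, 2 (SMC2 and SMC4) were lower in KDAC6H611A, 5 lower and 1 higher in KDAC8H143A, 6 lower with Tubastatin A and 7 with PCI-34051.

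Of 16 subunits and partners of the anaphase promoting complex, which are made throughout the cycle, 3 were lower in KDAC6H611A, 8 lower and 2 higher in KDAC8H143A, 7 lower with Tubastatin A and 5 lower and 1 higher with PCI-34051, with medians of -0.07, -0.29, -0.19 and -0.19, and the 5 of 16 with PCI-34051 lay near the 25.6% of all genes. Of 36 genes of the G1 to S transition, 1 (TYMS, -0.78 ± 0.13) was lower in KDAC6H611A beside 25 of the 50 mitotic genes, while 12 were lower and 6 higher in KDAC8H143A, 25 lower and 4 higher with Tubastatin A and 24 lower and 1 higher with PCI-34051, of which the 12 of 36 in KDAC8H143A lay near the 26.9% of all genes. The medians of this list were -0.19, -0.10, -0.37 and -0.43, beside -0.46, -0.998, -0.41 and -0.66 for the mitotic genes. The lists differ in level and GC content, and the difference between them was not tested.

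Among 23 regulators of cell cycle transcription, FOXM1 was at 114, 122, 119 and 118 CPM in WT, 87.6, 77.6, 100.6 and 92.1 CPM in KDAC6H611A, 67.9, 70.5 and 73.6 CPM with Tubastatin A and 64.6, 63.3 and 59.5 CPM with PCI-34051. It was lower in these 3 groups (-0.38 ± 0.09, -0.86 ± 0.05 and -1.02 ± 0.05) and not called in KDAC8H143A (-0.21 ± 0.09). MYBL2 (B-MYB) was at 21.5, 23.1, 25.3 and 22.3 CPM in WT and 59.2, 40.1, 58.7 and 73.2 CPM in KDAC8H143A, the one group in which it rose (1.37 ± 0.17), while it fell with the inhibitors (-0.41 ± 0.08 and -0.43 ± 0.09). CDKN1A (p21), an inhibitor of cyclin-dependent kinases, was at 123, 156, 146 and 153 CPM in WT and was higher in KDAC6H611A (0.55 ± 0.13), KDAC8H143A (0.47 ± 0.11) and with Tubastatin A (0.43 ± 0.06) and PCI-34051 (0.51 ± 0.06). The values of these regulators are not corrected for GC content. In KDAC8H143A the median of all genes with a GC content of 50% and over was 0.72. MKI67, the Ki-67 marker of cycling cells, was at 621, 603, 603 and 593 CPM in WT, 382, 362 and 369 CPM with Tubastatin A and 311, 285 and 302 CPM with PCI-34051 (-0.82 ± 0.05 and -1.12 ± 0.06), but did not pass the test in KDAC6H611A (-0.39 ± 0.10) or KDAC8H143A (0.05 ± 0.14). The list as a whole had 3 lower and 2 higher in KDAC6H611A, 10 lower and 4 higher in KDAC8H143A and 10 lower and 7 higher with each inhibitor, and 1 (CDKN1B, 0.59 ± 0.08) was higher in KDAC6H216A.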

How the data were processed

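RNA of 22 samples was sequenced after rRNA depletion. The authors trimmed reads (Trimmomatic 0.39), aligned them (Bowtie2 2.4.5) and deposited expected counts per gene from RSEM 1.3.3, one column per library, and tested them with DESeq2 1.38.2, as their notes and methods name these tools. The annotation release and strand setting are not given in the sources used here. No column was left unused. Here expected counts were rounded, which shifts a count by at most 0.5, and per-library CPM used TMM factors over all libraries.

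Each comparison was fitted on its own 2 groups with the quasi-likelihood test of edgeR 4.0.16 (R 4.3.3), with TMM scaling, filterByExpr, Benjamini-Hochberg adjustment over all genes tested and a threshold of 0.01. Standard errors are the log2 fold change over the root of its F statistic. DESeq2 1.42.0, total-count scaling, no filter, one fit of all 6 groups, correction of GC content and length (smooth trends per library, mgcv 1.9.3), protein-coding genes only, a replicate block and leaving out each library were the alternatives. The scripts were tested on simulated data. Transcript GC content and neighbours came from GENCODE 44 (GRCh38), and promoters from RefSeq.

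Replicate pairs of a group differed beyond sampling noise (mean chi-square per gene 2.97 to 307), so each library counts as 1. The depth, 5248960 to 29862658 counts, limits low genes most. Levels per library are given for the largest 4 falls and rises past the threshold against WT and for 10 example genes of the roles. The members, roles, lists and tests were chosen with earlier results of these data known.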

Additional observations from a re-analysis of the deposited data

Results flagged for a closer look

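In 8 of 96 groups of 4 libraries tested, for the named genes and for mitochondrial rRNA, 1 library stood far from the others by its gap over the range of the group, where chance flags about 1 in 20. ESPL1 and SPC24 were low in WT replicate 1, at 55.8 CPM against 65.4 to 66.3 CPM and at 43.0 CPM against 54.7 to 55.8 CPM, and TTK was high in WT replicate 3, at 57.3 CPM against 48.8 to 50.1 CPM. CENPE was high in KDAC6H216A replicate 3, at 204 CPM against 180.0 to 183 CPM. INCENP was low in KDAC6H216A replicate 1, at 81.6 CPM against 117.3 to 122 CPM, the library whose mitochondrial rRNA was 0.195% of counts against 13.1% to 15.1%. INCENP and NDC80 were low in KDAC6H611A replicate 2, at 57.1 CPM against 70.7 to 72.2 CPM and at 13.3 CPM against 14.7 to 14.8 CPM.

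Changes differed between groups in the direct tests for 26 of the 50 genes between KDAC6H611A and KDAC6H216A (all genes 5.31% lower and 4.61% higher). Between KDAC8H143A and KDAC6H611A 22 differed, near the share of all genes (20.9% lower and 24.3% higher). Between Tubastatin A and PCI-34051 19 differed (all genes 2.2% lower and 3.45% higher), of which 0 remained in one fit of all 6 groups.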

How the results depend on the processing

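Counts of members changed below are of 50 genes. At an adjusted p below 0.05 the count rose to 1 in KDAC6H216A, 44 for KDAC6H611A against KDAC6H216A and 35 for Tubastatin A against PCI-34051. Over all genes 214 of 14500 were then lower and 137 higher in KDAC6H216A. For KDAC6H611A against KDAC6H216A these were 1677 and 1432 of 14961, and for Tubastatin A against PCI-34051 1046 and 1417 of 18409. DESeq2 gave 1 in KDAC6H216A. Total count scaling gave 4 in KDAC6H611A, 25 with Tubastatin A, 29 with PCI-34051, 4 for KDAC6H611A against KDAC6H216A, 9 for KDAC8H143A against KDAC6H611A and 12 for Tubastatin A against PCI-34051. The GC and length correction gave 26 in KDAC8H143A and 12 for KDAC8H143A against KDAC6H611A, where of 22 calls 6 stayed, 13 were lost and 3 turned sign. One fit of all 6 groups gave 16 with Tubastatin A, 29 with PCI-34051, 44 for KDAC6H611A against KDAC6H216A and 0 for Tubastatin A against PCI-34051. Of all 18480 genes tested in it, 1610 were lower and 2997 higher with Tubastatin A, and 1641 and 2700 with PCI-34051. For KDAC6H611A against KDAC6H216A these were 1985 and 1397, and for Tubastatin A against PCI-34051 0 and 7. No filter gave 31 for the last, where 701 of all 33083 genes were lower and 1183 higher. Leaving out 1 library gave 0 to 23 in KDAC6H216A, 12 to 30 in KDAC6H611A, 13 to 42 for KDAC6H611A against KDAC6H216A and 9 to 20 for Tubastatin A against PCI-34051. The calls over all genes changed with the settings as well, and the cause of these shifts was not tested.

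Replicate numbers are shared by the groups, and the labels do not say whether a number marks a shared culture. Same-numbered libraries deviated together only weakly (correlations of -0.23 to 0.37). With so few libraries in a group this cannot settle whether the numbers pair them. The replicate block gave 19 in KDAC6H611A, 44 in KDAC8H143A, 39 with Tubastatin A, 47 with PCI-34051, 16 for KDAC6H611A against KDAC6H216A, 19 for KDAC8H143A against KDAC6H611A and 15 for Tubastatin A against PCI-34051. Over all genes 805 of 14725 were lower and 754 higher in KDAC6H611A, and 4286 and 4908 of 16101 in KDAC8H143A. With Tubastatin A these were 3794 and 3917 of 15246, and with PCI-34051 3578 and 3556 of 15346. For KDAC6H611A against KDAC6H216A they were 477 and 453 of 14961, and for Tubastatin A against PCI-34051 288 and 478 of 18409. For KDAC8H143A against KDAC6H611A they were 3005 and 3567 of 16624, near the share of the 50. With the block and the GC and length correction the counts were 15 in KDAC6H611A, 26 in KDAC8H143A, 14 for KDAC6H611A against KDAC6H216A, 6 for KDAC8H143A against KDAC6H611A and 12 for Tubastatin A against PCI-34051. Over all genes 757 of 14725 were then lower and 665 higher in KDAC6H611A, and 3696 and 3991 of 16101 in KDAC8H143A. For KDAC6H611A against KDAC6H216A these were 406 and 414 of 14961, and for KDAC8H143A against KDAC6H611A 2217 and 2405 of 16624. For Tubastatin A against PCI-34051 they were 271 and 425 of 18409.

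Called changes that turned sign are given as log2 fold changes. In KDAC8H143A, under the GC and length correction without and with the block, they were CENPK 0.14 and 0.14, ESPL1 -0.22 and -0.22, HMMR 0.25 and 0.23, INCENP -0.23 and -0.24, PLK1 -0.043 and -0.042, and SGO2 0.065 and 0.060. Against KDAC6H611A they were ANLN 0.022 and 0.024, DLGAP5 0.020 and 0.029, and NUF2 0.086 and 0.083. With Tubastatin A they were PTTG1 0.12 and 0.11, and, under total count scaling, ASPM 0.15, CCNA2 0.13, CCNB1 0.017, CDC20 0.043, CDK1 0.036, DLGAP5 0.13, ECT2 0.0022, HMMR 0.17, KIF23 0.016, MAD2L1 0.14, NUF2 0.0055, PRC1 0.041, PTTG1 0.050 and TOP2A 0.030. With PCI-34051 under total count scaling they were ASPM 0.023, CCNB2 0.13, FBXO5 0.084, PLK1 0.072 and SGO2 0.0049.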
